A study of Mus musculus with 8 samples.

Results

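The complement genes examined here are 9 genes for components and regulators of the complement system, C3, Cfb, Cfd, Cfp, C1ra, C1s1, C4b, Cd55 and Cd59a, chosen by name among the 52325 genes of the count table. RNA-seq was carried out on endometrium dissected by laser capture from frozen sections of the uterus. The tissue came from 4 WT and 4 Thra1PV/+ female mice, all in metestrus. Thra1PV/+ mice carry 1 mutated copy of Thra, the gene of thyroid hormone receptor alpha. The mutated receptor is dominant negative, and the mutation is present in all tissues, not only in the uterus. The ages of these mice were not given in the sources used here. All 9 genes were found in the table, and 8 of them passed the filter on low counts. The comparison of genotypes asked whether the mutation changed what the endometrium transcribes.

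Complement is a cascade of plasma and tissue proteins that marks surfaces for uptake by phagocytes and opens pores in membranes. The classical pathway starts with C1, whose proteases are C1r and C1s, and C1s cuts C4 and C2. The alternative pathway runs on C3, factor B, factor D and properdin. Both pathways meet at the cleavage of C3, and membrane proteins such as CD55 and CD59 protect the body's own cells. In the uterus of rodents, C3 is a classic estrogen-induced product of the epithelium.

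None of the 8 tested complement genes passed the test for a difference between Thra1PV/+ and WT endometrium. C3 and Cfb were among the most abundant transcripts of the tissue in some libraries and varied more between mice of 1 genotype than nearly all other genes. The mean level of C3 was 3461 ± 2121 CPM (TMM-scaled CPM, counts relative to library size, SD, n = 4) in Thra1PV/+ and 6594 ± 8198 CPM (n = 4) in WT endometrium. Cfb stood at 2472 ± 1377 CPM in Thra1PV/+ and 1557 ± 1257 CPM in WT endometrium. By edgeR's quasi-likelihood test, 0 of the 8 genes passed the thresholds for a call (fold change of at least 2, adjusted p of at most 0.1), which 180 of the 18174 tested genes passed (0.99%). By direction, 0 of the 8 were called higher in Thra1PV/+ endometrium, against 0.924% of all tested genes, and 0 lower, against 0.066%. DESeq2 also called 0 of these 8, against 3.58% of 22073 genes, and gave no adjusted p for Cfd. At an unadjusted p under 0.05, edgeR counted 0 of the 8 complement genes and 9.77% of all tested genes. In all 8 the ranges of the genotypes overlapped, and 6.04% of all tested genes had ranges without overlap. Of the 8 log2 fold changes, 3 were positive and 5 negative.

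**Figure D1:**
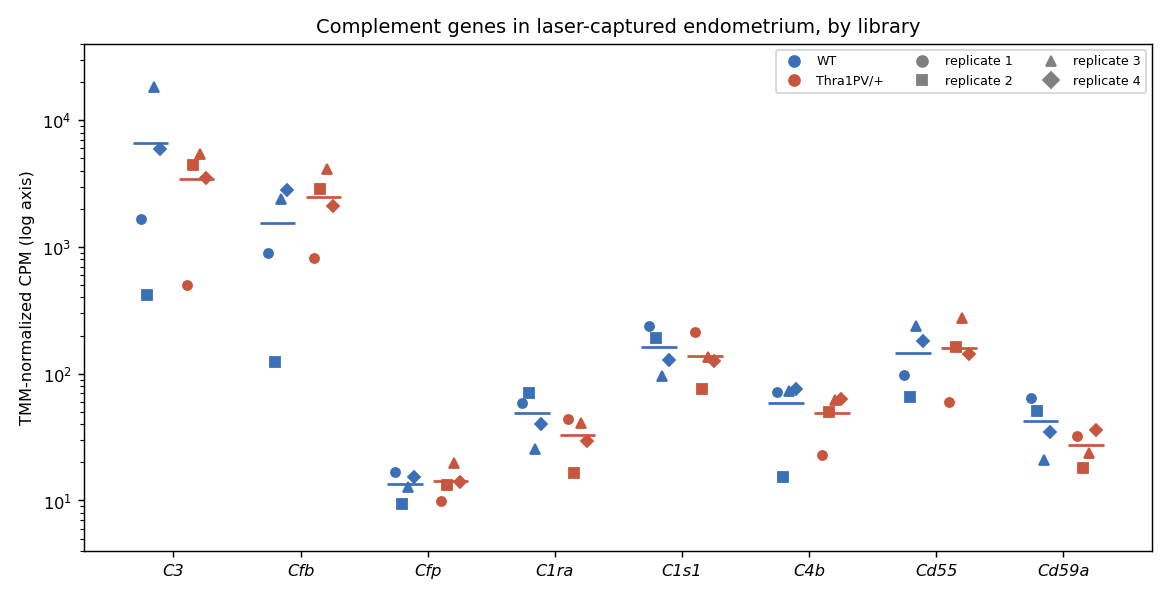
TMM-normalized CPM (log axis) of 8 complement genes in each of 4 WT and 4 Thra1PV/+ libraries. Points are libraries, with a symbol for each replicate number, and bars are group means. The genotypes overlap for every gene shown, and C3 spans 415 to 18372 CPM.

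The 8 libraries held between 48791602 and 59818887 counts. They differed in the levels of marker genes of epithelium and stroma. A marker balance, the mean log2 CPM of 6 simple epithelium genes minus that of 7 endometrial stroma genes, lay between -0.44 and -0.27 in Thra1PV/+ replicate 1, WT replicate 1 and WT replicate 2, and between 2.29 and 3.91 in the other 5 libraries. WT replicate 1 also had a summed level of 9706 CPM over 6 smooth muscle genes. Markers of both epithelium and stroma were present in every library. The summed level of 7 squamous epithelium genes ran from 2818 to 4362 CPM in Thra1PV/+ and from 1.22 to 64.3 CPM in WT libraries. In such bulk samples, fewer cells of a type and less RNA per cell cannot be told apart. Thra itself ran from 45.8 to 127 CPM in Thra1PV/+ and from 47.4 to 110 CPM in WT libraries, and its count does not tell the mutated from the normal allele.

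Promoters of 7 of the 9 genes, all but Cfb and C4b, were found among the RefSeq promoter windows (GRCm38.p6). Each window holds 250 bases before the start of transcription and 50 from it on. The windows of C3, C1ra, C1s1 and Cd55 are shown because the 3 libraries of low marker balance lay apart from the other 5 for these genes. C3 and Cd55 were lower in these 3 libraries, and C1ra and C1s1 higher. Cfb was also lower there but had no window to show. Capitals mark the letters of the motifs searched, and positions are counted from 0 at the first transcribed base.
C3, chr17:57228087-57228386, strand minus: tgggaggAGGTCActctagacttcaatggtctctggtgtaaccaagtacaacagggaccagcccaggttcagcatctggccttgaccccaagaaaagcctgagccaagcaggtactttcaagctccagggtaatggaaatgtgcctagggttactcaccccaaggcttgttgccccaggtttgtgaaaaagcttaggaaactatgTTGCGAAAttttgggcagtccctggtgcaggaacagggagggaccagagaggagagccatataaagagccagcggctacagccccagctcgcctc
C1ra, chr6:124512371-124512670, strand plus: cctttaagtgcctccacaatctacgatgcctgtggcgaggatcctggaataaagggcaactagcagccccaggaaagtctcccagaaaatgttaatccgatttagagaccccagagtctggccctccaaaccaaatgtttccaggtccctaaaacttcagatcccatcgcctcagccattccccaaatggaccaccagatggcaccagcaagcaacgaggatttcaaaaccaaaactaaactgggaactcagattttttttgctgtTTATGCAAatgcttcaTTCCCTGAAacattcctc
C1s1, chr6:124542310-124542609, strand minus: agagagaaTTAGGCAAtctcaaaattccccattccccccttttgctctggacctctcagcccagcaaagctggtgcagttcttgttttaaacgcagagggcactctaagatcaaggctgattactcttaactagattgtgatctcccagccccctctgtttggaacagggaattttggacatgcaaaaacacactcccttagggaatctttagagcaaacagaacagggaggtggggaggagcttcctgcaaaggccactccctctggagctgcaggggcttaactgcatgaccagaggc
Cd55, chr1:130462695-130462994, strand minus: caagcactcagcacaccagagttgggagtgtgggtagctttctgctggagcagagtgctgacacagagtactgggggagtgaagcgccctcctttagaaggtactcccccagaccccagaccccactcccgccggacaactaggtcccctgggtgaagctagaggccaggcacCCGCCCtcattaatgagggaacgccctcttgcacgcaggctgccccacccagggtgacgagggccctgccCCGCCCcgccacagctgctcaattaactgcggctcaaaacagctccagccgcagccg

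The motifs searched on both strands were the consensus estrogen response element (a palindrome), AGGTCA (its arm, which other nuclear receptors also bind), TTCNNNGAA (the form STAT factors bind), TTGCNNAA (a form of the C/EBP site), GGGCGG (the GC box) and the NF-kB consensus. AGGTCA lies within some matches of the palindrome. The C3 window held AGGTCA at -243 to -238, and 16.3% of 32851 promoter windows of this length hold it. It also held TTGCNNAA at -45 to -38, a motif in 10.8% of windows. The palindrome was in 0.0700% of windows and not in that of C3. C1s1 held TTGCNNAA at -242 to -235. RefSeq places the start of C1ra inside the gene as GENCODE M21 draws it, so nearly all of its window lies within that gene. This window held TTGCNNAA at 16 to 23 and TTCNNNGAA, found in 8.30% of windows, at 32 to 40. Cd55 held GGGCGG, written as CCGCCC on the strand shown, at -77 to -72 and -7 to -2, and 35.7% of windows hold it. Of the windows not shown, that of Cfp held AGGTCA at 38 to 43. The NF-kB consensus, in 4.51% of windows, was in none of the 7. These matches are letters only, and binding was not measured.

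C3, the protein on which both pathways converge, is encoded on chr17:57203970-57228136 (GRCm38, minus strand). In Thra1PV/+ endometrium it was at 499, 4403, 5417 and 3525 CPM in replicates 1 to 4, and in WT endometrium at 1668, 415, 18372 and 5922 CPM. The lowest and the highest library were both WT, and the Thra1PV/+ values lay between them. WT replicate 3 stood out, with 1.54% of all its counts from this 1 gene (95% Wilson interval 1.54% to 1.55%, for counting error only). The log2 fold change of Thra1PV/+ against WT was -0.93 (SE 1.07, adjusted p = 0.841, edgeR), and its 95% interval ran from 0.0955 to 2.88 times the WT level. The median was 3964 CPM in Thra1PV/+ and 3795 CPM in WT endometrium. The difference of mean log2 CPM was -0.21 (two-sided exact permutation p = 0.857, where the smallest p that 70 arrangements allow is 0.0286). The negative sign rested on WT replicate 3, without which the log2 fold change was 0.40.

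Cfb encodes factor B, the protease that joins C3b in the C3 convertase of the alternative pathway. It lies on chr17:34856374-34862518 (GRCm38, minus strand). Its level was 817, 2886, 4095 and 2090 CPM in Thra1PV/+ and 903, 124, 2395 and 2804 CPM in WT endometrium. WT replicate 2 was the lowest library here as for C3, and Thra1PV/+ replicate 3 the highest. The log2 fold change was 0.67 (SE 0.83, adjusted p = 0.857, edgeR), with a 95% interval from 0.426 to 5.92 times the WT level. In the annotation (GENCODE M21), 75.5% of the 31-letter words of Cfb transcripts also occur in Gm20547, a gene model on the same strand that overlaps it, so estimated counts could be split between the 2. Gm20547 held between 0 and 8.87 CPM.

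In CPM, C3 was below Cfb in Thra1PV/+ replicate 1 and above it in every other library. CPM do not account for transcript length, and in TPM, which do, Cfb was above C3 in 6 of 8 libraries. The ratio of their CPM was 0.611, 1.53, 1.32 and 1.69 in Thra1PV/+ replicates 1 to 4 and 1.85, 3.33, 7.67 and 2.11 in WT replicates 1 to 4. The ratios of the genotypes did not overlap, though 1.69 and 1.85 were close. This pair was chosen after its values were seen, and the ratio is given with no test.

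Cfd encodes factor D, which cleaves factor B and is also known as adipsin for its high level in fat cells. It lies on chr10:79890853-79892655 (GRCm38, plus strand). It had 0, 0, 224 and 1 counts in Thra1PV/+ and 0, 38, 0 and 0 counts in WT replicates 1 to 4. It did not pass the filter on low counts and was not tested. A count of 0 allows up to 3 counts in these libraries, for counting error only. Thra1PV/+ replicate 3, the library with 224 counts, was also the highest of the 8 for Adipoq (77 counts), Fabp4 (226), Retn (43), Cidec (40) and Plin1 (18), all genes of fat cells. WT replicate 2 was the next highest for Adipoq, Cidec, Retn and Plin1, with 4, 4, 13 and 14 counts. Lep, the gene of leptin, was at 0 in all 8 libraries, while Plin4 and Lipe were highest in WT replicate 1 and WT replicate 3. Summed over all 8 adipocyte genes, the level was 22.6 to 40.4 CPM in Thra1PV/+ and 35.3 to 117 CPM in WT endometrium. Most of this sum came from Lipe (21.9 to 39.6 CPM in Thra1PV/+ and 23.3 to 115 CPM in WT) and, in WT replicate 1, Plin4 (28.0 CPM). It therefore says little of the other genes in the list. The part of fat cells in the Cfd counts was not tested.

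**Figure D2:**
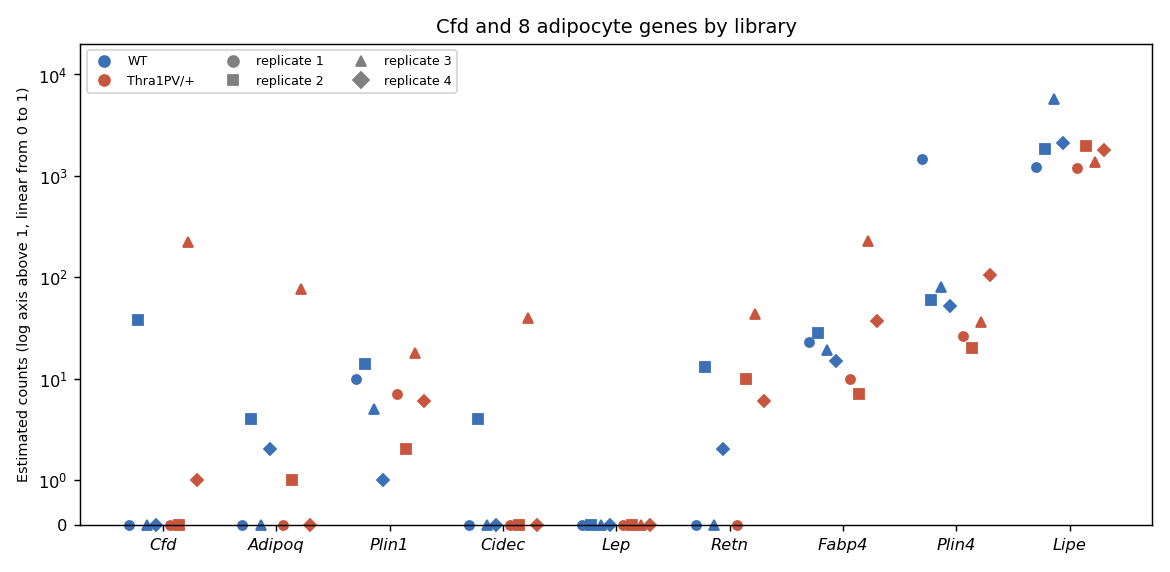
Estimated counts (vertical axis, logarithmic above 1 and linear from 0 to 1) of Cfd and all 8 adipocyte genes, with a point for each of the 8 libraries. Thra1PV/+ replicate 3 is highest for Cfd (224 counts), Adipoq, Plin1, Cidec, Retn and Fabp4, while Plin4 and Lipe are highest in WT libraries and Lep is at 0 in all.

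Cfp encodes properdin, which stabilises the alternative pathway convertase and is made mainly by myeloid cells. It lies on chrX:20925454-20931555 (GRCm38, minus strand). Its level was 9.95, 13.1, 19.6 and 13.9 CPM in Thra1PV/+ and 16.8, 9.41, 12.7 and 15.4 CPM in WT endometrium. It was the least variable of the 8 tested genes, and the genotypes covered almost the same range. Its log2 fold change was 0.061 (SE 0.26, adjusted p = 0.969, edgeR), with a 95% interval from 0.686 to 1.59 times the WT level. The summed level of 7 macrophage genes was 116 to 317 CPM in Thra1PV/+ and 121 to 217 CPM in WT endometrium. That of 7 neutrophil genes was 74.7 to 722 CPM in Thra1PV/+ and 7.94 to 127 CPM in WT endometrium.

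C1ra and C1s1 encode C1r and C1s, the proteases of the first component, and are neighbours on chromosome 6 in opposite orientation (chr6:124512405-124523443, plus strand, and chr6:124530345-124542359, minus strand, GRCm38). C1ra stood at 44.1, 16.6, 40.7 and 29.7 CPM in Thra1PV/+ and at 58.9, 70.3, 25.3 and 40.4 CPM in WT endometrium. C1s1 stood at 215, 76.4, 135 and 126 CPM in Thra1PV/+ and at 238, 192, 95.3 and 129 CPM in WT endometrium. Both were lowest in Thra1PV/+ replicate 2, and C1ra was 0.205 to 0.367 times C1s1 in CPM in all 8 libraries. The log2 fold change of C1ra was -0.57 (SE 0.38, adjusted p = 0.688, edgeR; 95% interval 0.366 to 1.24 times WT). For C1s1 it was -0.25 (SE 0.37, adjusted p = 0.887, edgeR), with a 95% interval of 0.471 to 1.51 times the WT level. C1ra shares 56.9% of its 31-letter words with its paralog C1rb, which had at most 2 counts in any library. C1s1 shares 33.5% with C1s2, which stood at 2.51 to 7.34 CPM, and the division of reads between such copies is uncertain.

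C4b encodes C4, the substrate of C1s. It lies on chr17:34728380-34743882 (GRCm38, minus strand), a short way from Cfb. Its level was 22.7, 49.5, 62.1 and 62.7 CPM in Thra1PV/+ and 72.4, 15.2, 73.1 and 76.3 CPM in WT endometrium. WT replicates 1, 3 and 4 were above all Thra1PV/+ libraries, and WT replicate 2 was below them all. Its log2 fold change was -0.27 (SE 0.51, adjusted p = 0.914, edgeR), with a 95% interval from 0.373 to 1.85 times the WT level. C4b shares 48.3% of its words with C4a, which stood at 0.9 to 11.1 CPM, so its counts carry the same uncertainty.

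Cd55, on chr1:130439027-130462744 (GRCm38, minus strand), encodes decay-accelerating factor, a membrane protein that breaks up C3 convertases. Its level was 60.1, 163, 276 and 144 CPM in Thra1PV/+ and 98.2, 65.7, 238 and 181 CPM in WT endometrium. Replicate 3 of each genotype was its highest library, and the ranges overlapped almost completely. Its log2 fold change was 0.14 (SE 0.51, adjusted p = 0.962, edgeR), with a 95% interval from 0.488 to 2.5 times the WT level. Its paralog Cd55b, with 11.2% of the words of Cd55, had at most 7 counts in any library.

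Cd59a, on chr2:104095801-104115354 (GRCm38, plus strand), encodes the membrane protein that blocks assembly of the terminal pore. Its level was 32.3, 17.9, 23.8 and 36.0 CPM in Thra1PV/+ and 64.3, 50.9, 20.7 and 34.7 CPM in WT endometrium. WT replicates 1 and 2 were above all Thra1PV/+ libraries, while WT replicates 3 and 4 lay among them. Its log2 fold change was -0.63 (SE 0.36, adjusted p = 0.635, edgeR), with a 95% interval from 0.363 to 1.14 times the WT level. This was the lowest adjusted p of the 8 genes. Cd59b, which shares 8.23% of the words of Cd59a, stood at 1.35 to 4.86 CPM.

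Levels of different genes were compared in TPM, which are per transcript length, as deposited. By their median over the 8 libraries, Cfb (1353 TPM) and C3 (1176 TPM) came first. They were followed by Cd55 (87.2), C1s1 (53.9), C4b (47.1), Cd59a (28.9), C1ra (15.4), Cfp (13.7) and Cfd (0 TPM). C3 ran from 120 to 4664 TPM and its rank among all genes of a library from 21 to 1016. The order was set from the same values, so the pairs of neighbours were not chosen independently of the test. Of the 8 pairs, 3 differed beyond their spread. C3 was above Cd55, Cd59a above C1ra and Cfp above Cfd in 8 of 8 libraries each (two-sided exact sign-flip test on log2 TPM, p = 0.0078, the smallest that 256 sign patterns allow, adjusted p = 0.0208 over 8 pairs). Cfd was at 0 counts in 5 of these libraries. C3 exceeded Cd55 by 3.33 ± 1.16 (SD, n = 8) on the log2 TPM scale, with a pseudocount of 0.1. In the 5 other pairs the order was not the same in all libraries, such as Cfb above C3 in 6 of 8 (exact p = 0.484, adjusted p = 0.5).

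The spread between mice of 1 genotype set the precision of these comparisons. The within-genotype SD of log2 CPM, pooled over both genotypes, was 2.01 for C3 and 1.62 for Cfb. Among the 12132 tested genes whose mean log2 CPM was 2 or more, C3 was at the 99.4th and Cfb at the 98.5th percentile of this SD, and the median gene had 0.31. C4b (0.94), Cd55 (0.88), C1ra (0.65), C1s1 (0.60) and Cd59a (0.60) came next, and Cfp (0.38) was at the 59.9th percentile. Within WT endometrium the highest C3 library exceeded the lowest 44.3 times, and within Thra1PV/+ endometrium 10.9 times.

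For C3, Cfb, Cd55, C1ra and C1s1, this variation set the 3 libraries of low marker balance apart from the other 5. Within those 5, C3 did not follow the order of the balance. It was at 4403 CPM in Thra1PV/+ replicate 2 (balance 3.91) and at 18372 CPM in WT replicate 3 (balance 2.78). The 3 libraries of low balance held the 3 lowest values of C3 (415 to 1668 CPM, against 3525 to 18372 CPM in the other 5), of Cfb (124 to 903 against 2090 to 4095 CPM) and of Cd55 (60.1 to 98.2 against 144 to 276 CPM). The same 3 libraries held the 3 highest values of C1ra (44.1 to 70.3 against 16.6 to 40.7 CPM) and C1s1 (192 to 238 against 76.4 to 135 CPM). C4b, Cd59a and Cfp overlapped between the 2 sets of libraries. Of all tested genes, 9.67% lay wholly below and 13.7% wholly above in these 3 libraries. All 6 simple epithelium genes lay below, among them Epcam (261 to 360 against 648 to 1056 CPM), and 6 of 7 stroma genes lay above, among them Hoxa11 (142 to 308 against 10.1 to 50.9 CPM). The libraries were ordered by these markers after the data were seen, and the values are a description with no test. The part of tissue composition in the levels of the complement genes was not tested. With the marker balance as a covariate, a fit chosen after seeing the data, edgeR called 0 of the 8 genes, against 2.11% of all tested genes. In that fit the log2 fold change of C3 was -1.63 (SE 0.53, adjusted p = 0.236, edgeR), and in the 5 libraries of high balance alone it was -1.41 (SE 0.47, adjusted p = 0.336, edgeR), with 0 of the 8 called there against 1.09% of all tested genes. Both of these fits included WT replicate 3, and neither was run without it. The sign of C3 rested on that library in the fit of all 8. In the 5 libraries, WT replicates 3 and 4 (18372 and 5922 CPM) exceeded all Thra1PV/+ libraries (3525 to 5417 CPM).

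**Figure D3:**
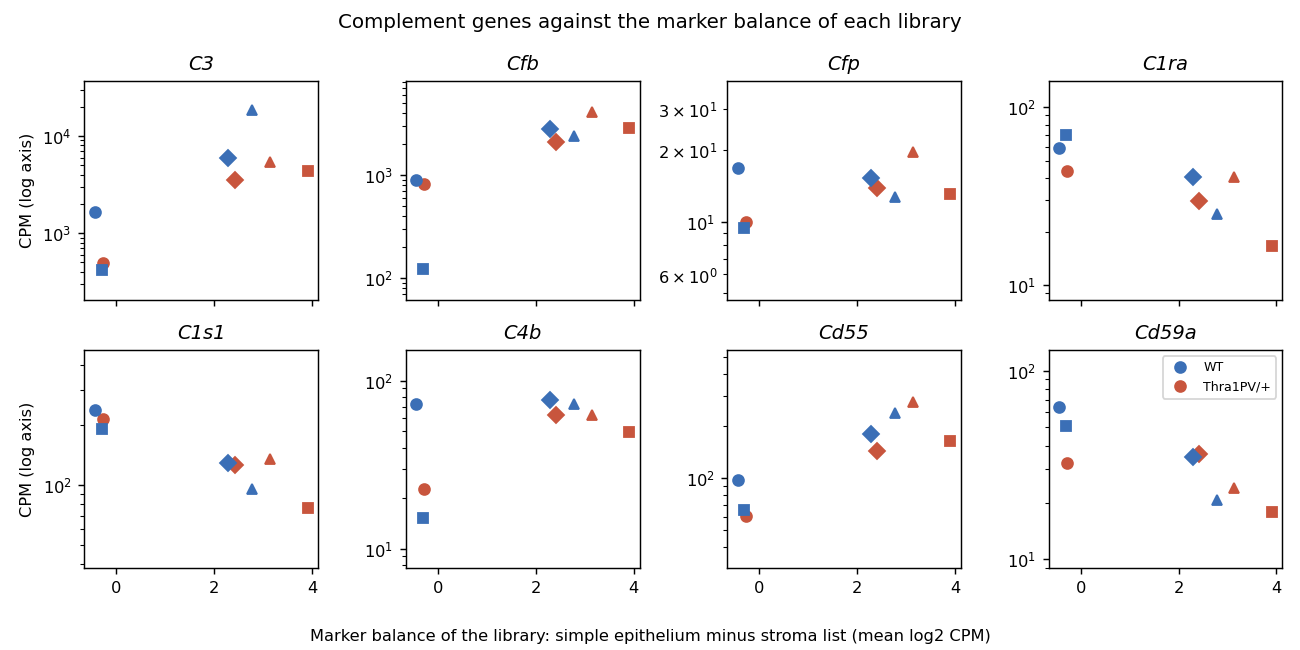
CPM (log axis) of 8 complement genes against the marker balance of each library, the mean log2 CPM of simple epithelium genes minus that of stroma genes. Points are libraries, blue for WT and red for Thra1PV/+. The 3 libraries at -0.44 to -0.27 hold the lowest C3, Cfb and Cd55 and the highest C1ra and C1s1.

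Among the same 12132 genes, those whose pattern over the 8 libraries was most like that of C3 were Pigr, Hgfac, Trpv6, Rnf183 and Gm13398. Likeness was measured as the mean absolute difference of log2 CPM centred on each gene's mean, and it was 0.33 for Pigr, which encodes the receptor that carries polymeric immunoglobulins across epithelia. For Hgfac, a serine protease that activates hepatocyte growth factor, it was 0.35, and for Trpv6, an epithelial calcium channel, 0.38. Rnf183 (0.39) and Gm13398 (0.43) followed. Pigr ran from 222 to 5051 CPM and Trpv6 from 31.8 to 1236 CPM. None of the 5 was called between genotypes by edgeR, with adjusted p from 0.691 for Hgfac to 0.936 for Pigr. In a list of 10 uterine estrogen response genes, such as Ltf (lactoferrin) and Muc1, edgeR called 0, against 0.99% of all tested genes. DESeq2 also called 0, against 3.58% of the genes it tested. At an unadjusted p under 0.05, edgeR had 0 of the 10, against 9.77% of all tested genes. Of the 10 log2 fold changes, 2 were positive and 8 negative, against 7843 positive and 10331 negative over all tested genes. Ltf stood at 8520 ± 2890 CPM in Thra1PV/+ and 8096 ± 7156 CPM in WT endometrium (SD, n = 4 each).

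A wider list of 56 complement genes, the 9 included, held 39 tested genes. Of these, 18 had positive and 21 negative log2 fold changes with a median of -0.25, against 7843 positive, 10331 negative and a median of -0.053 over all tested genes. EdgeR called 0 of the 39, against 0.99% of all tested genes, and had 3 of them at an unadjusted p under 0.05, against 9.77%. DESeq2 called 3, namely C5ar2, Itgb2 and Vtn, against 3.58% of the genes it tested. The genotypes did not overlap for the same 3 genes, a share of the list close to the 6.04% of all tested genes without overlap. All 7 tested receptors had positive and all 8 tested soluble regulators negative log2 fold changes, with medians of 0.69 and -1.01. These signs did not hold for 4 of the 15 under every alternative. Cd93 turned to -0.27 without Thra1PV/+ replicate 1 and -0.096 without WT replicate 3, and was also below 0 with the replicate block and on log2 TPM. C3ar1 was at -0.022 in the 5 libraries of high marker balance, Cfi at 0.024 on log2 TPM (pseudocount 1) and Serping1 at 0.016 without WT replicate 1. The other roles were mixed, with 6 of 9 classical, 2 of 3 alternative, 1 of 3 lectin, 1 of 4 terminal and 1 of 5 membrane regulator genes positive.

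C5ar2, a receptor for the fragment C5a, was at 4.08, 4.32, 5.07 and 3.87 CPM in Thra1PV/+ and 1.95, 1.55, 2.15 and 2.32 CPM in WT endometrium. All 4 Thra1PV/+ libraries were above all WT libraries. Its log2 fold change was 1.12 (SE 0.25, adjusted p = 0.140, edgeR), and DESeq2 gave an adjusted p of 1.79e-05. Itgb2, the beta chain of the leukocyte integrins that serve as complement receptors 3 and 4, was at 30.0, 19.2, 19.5 and 16.9 CPM in Thra1PV/+ and 11.2, 11.6, 8.06 and 12.6 CPM in WT endometrium. The genotypes did not overlap for this gene either, at a log2 fold change of 0.98 (SE 0.23, adjusted p = 0.174, edgeR) and an adjusted p of 0.00709 by DESeq2. With the marker balance as a covariate, edgeR called both receptors, at adjusted p = 0.0999 for C5ar2 and 0.0479 for Itgb2. Both are genes of leukocytes. The summed levels of the macrophage and of the neutrophil list, given beside Cfp, overlapped between the genotypes. Log2 fold changes were positive for 4 of 6 tested macrophage and 5 of 6 tested neutrophil genes. Over all tested genes, 7843 were positive and 10331 negative. EdgeR called 0 in either list, against 0.99% of all tested genes. S100a8, S100a9 and Csf3r of the neutrophil list each had 3 Thra1PV/+ libraries above all WT libraries, while Cxcr2 had 2, Retnlg 1 and Ly6g 0. DESeq2 called S100a9 and Csf3r, and it called 3.58% of all the genes it tested. The part of leukocytes in the levels of C5ar2 and Itgb2 was not tested.

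Vtn encodes vitronectin, an inhibitor of the terminal pore. It stood at 4.48, 0.629, 1.37 and 2.42 CPM in Thra1PV/+ and 8.36, 7.22, 7.14 and 4.65 CPM in WT endometrium. Every WT library was above every Thra1PV/+ library, with 4.48 and 4.65 CPM close together. Its log2 fold change was -1.62 (SE 0.56, adjusted p = 0.381, edgeR), with an adjusted p of 0.0876 by DESeq2. C2, the classical partner of factor B, stood at 115 ± 43.0 CPM in Thra1PV/+ and 50.7 ± 33.1 CPM in WT endometrium (SD, n = 4 each), at a log2 fold change of 1.19 (SE 0.55, adjusted p = 0.547, edgeR). Cpn1, a carboxypeptidase that inactivates complement fragments, had the lowest log2 fold change among the soluble regulators (-1.91, SE 0.85, adjusted p = 0.523, edgeR), with 38.3 CPM in WT replicate 3 and 1.8 to 7.47 CPM in the other 7 libraries. Of the lectin pathway, Fcna (a ficolin) was at -1.34 (SE 0.67, adjusted p = 0.581, edgeR) and Colec12 (a collectin) at -0.66 (SE 0.89, adjusted p = 0.870, edgeR). Of the terminal pathway, Hc, which encodes C5, was at 0.48 (SE 0.72) and C8g at -0.43 (SE 0.31). Cd46, a membrane cofactor, was at -0.65 (SE 0.33, adjusted p = 0.583, edgeR). In the wider list, members of the 9 included, 10 of the 39 tested genes lay below (9.67% of all tested genes) and 5 above (13.7% of all) in the 3 libraries of low marker balance. They held C2 (13.8 to 56.3 against 73.0 to 158 CPM) and Cpn1 among the former and Colec12 (87.7 to 95.1 against 6.47 to 24.2 CPM) among the latter.

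**Figure D4:**
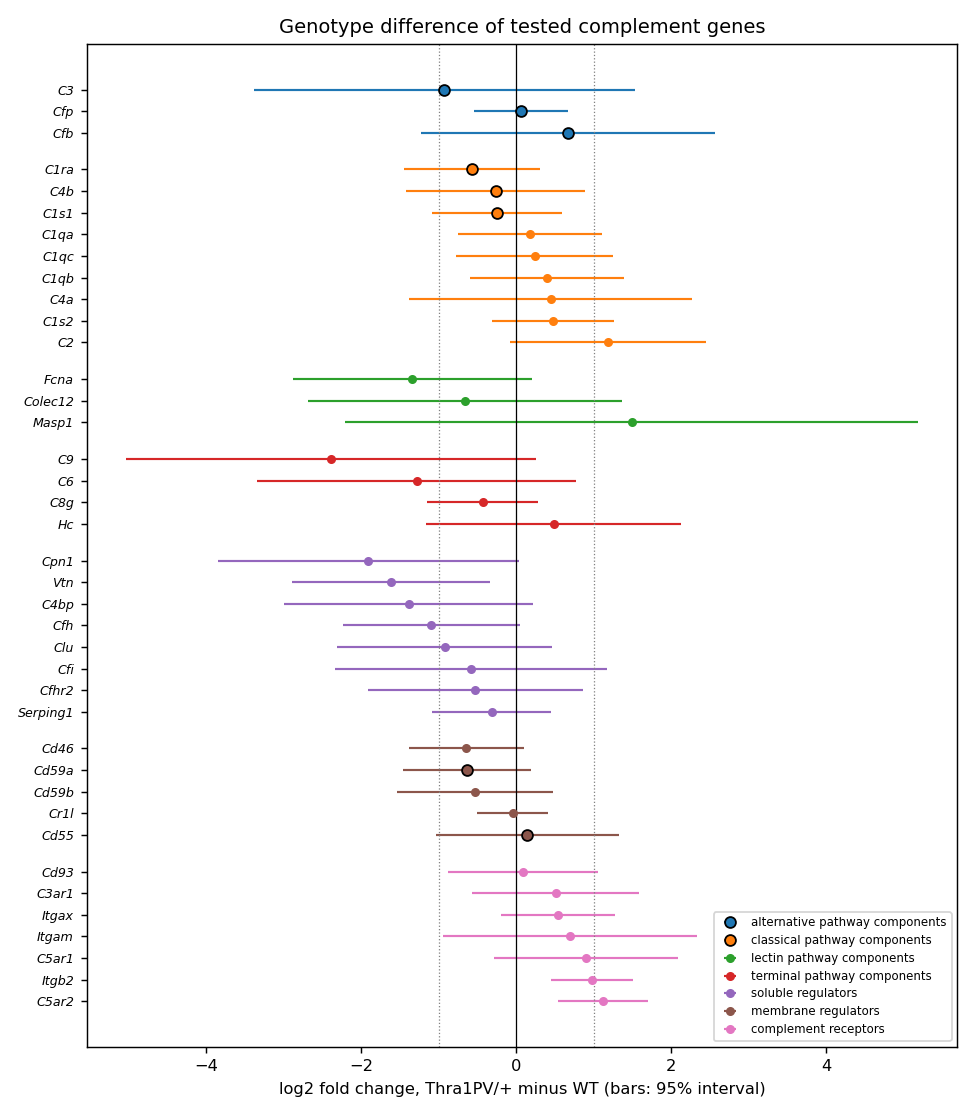
Log2 fold change of Thra1PV/+ against WT (horizontal axis) for the 39 tested genes of the wider complement list, in order of role. Points are edgeR estimates from 4 libraries a genotype, bars are 95% intervals, larger points with a black edge are the 8 tested genes of the 9, and dotted lines mark a fold change of 2. In this fit all 7 receptors lie right of 0 and all 8 soluble regulators left of it, but Cd93, C3ar1, Cfi and Serping1 crossed 0 under at least 1 alternative.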

How the data were processed

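Endometrial RNA of 4 WT and 4 Thra1PV/+ mice, grouped by the labelled genotype, was analysed. Stranded mRNA libraries were sequenced in pairs, trimmed with Trimmomatic and quantified with Salmon for mouse genome mm10. Versions and the annotation release were not given in the sources used here. Estimated counts were deposited for each gene, unnormalized. The deposited TPM values were nearly the same at each rank in all libraries (differing by at most 0.291 TPM), the form quantile normalization gives. In that table, 1 further column of per-sample values was not used.

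Estimated counts were rounded, filtered with filterByExpr (minimum count 10, minimum total 15) and normalized by TMM. EdgeR 4.0.16 compared the genotypes with no other term, with Benjamini-Hochberg adjustment over 18174 genes. Library totals were 48791602 to 59818887, and up to 0.00897% of counts had no gene symbol (52220 of 52325 identifiers matched). The paper gives 4 mice of each genotype for this RNA-seq, and nothing in the sources says how these mice relate. Each library was taken as 1 mouse, so p-values measure the spread between mice. No pair of libraries had identical counts (28 pairs). DESeq2 1.42.0, limma 3.58.1 on log2 TPM, other scalings and filters, a replicate block and leaving out each library were alternatives. The marker balance as a covariate, and the 5 libraries of high balance, were added after seeing the data. Positions and transcript words came from GENCODE M21 (all 9 identifiers had the same version) and promoters from RefSeq. Tests were tried on simulated data first.

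The 9 genes and all lists were chosen with earlier results of these data known. Named besides them were, in each role of the wider list, the 2 genes with the largest absolute log2 fold change at a mean log2 CPM of at least 0, sequence paralogs, list genes on which a result turned and the 5 genes nearest to C3. C5ar2, Itgb2, Vtn and Cfi are also named for being called under an alternative.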

Additional observations from a re-analysis of the deposited data

Results flagged for a closer look

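Of 44 groups of 4 libraries examined, 4 had a library whose gap to the nearest other exceeded Dixon's 95% critical value, with the gap taken as a share of the group's range on the log2 scale, where chance gives 2.2. In Thra1PV/+ endometrium, Cfd was set apart by replicate 3 (gap 0.958 of the range), at 4.58 CPM against at most 0.0175 CPM in the others. In WT endometrium, Cfd was set apart by replicate 2 (gap 1 of the range), at 0.686 CPM against 0 in the others. With the others tied at 0, the gap is the whole range for any value above 0, and both Cfd groups are at or near 0 in all libraries but 1, so they say little beside the number chance gives. C4b was low in WT replicate 2 (gap 0.967 of the range), at 15.2 CPM against 72.4 to 76.3 CPM. Cd46 was low in Thra1PV/+ replicate 3 (gap 0.954 of the range), at 1.76 CPM against 2.41 to 2.45 CPM.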

How the results depend on the processing

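Over 18 alternatives, the number of the 9 complement genes called stayed at 0, and of 144 log2 fold changes of the 8 tested genes 132 kept their sign and 12 did not. Besides leaving out single libraries (7 of the 12), the sign changed with the marker balance as a covariate for Cfp (-0.073), C1s1 (0.14) and Cd55 (-0.40), and in the 5 libraries of high balance for C1s1 (0.037) and Cd55 (-0.067). Over the fits that left out 1 library, the log2 fold change ranged from -1.28 to 0.40 for C3, 0.31 to 1.11 for Cfb, -0.14 to 0.24 for Cfp, -0.77 to -0.32 for C1ra, -0.50 to 0.033 for C1s1, -0.55 to 0.012 for C4b, -0.25 to 0.51 for Cd55 and -0.85 to -0.32 for Cd59a. The sign turned without WT replicate 3 for C3, WT replicate 1 for C1s1 and Thra1PV/+ replicate 1 for C4b, and without either Thra1PV/+ replicate 3 or WT replicate 2 for Cfp and Cd55. On log2 TPM (pseudocount 1), the log2 fold change of C3 was -0.076. The lowest adjusted p of any of the 8 under any alternative was 0.236, for C3 with the covariate. The cause of these shifts was not tested.

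The number of the wider complement list called was 0 with edgeR, 3 with DESeq2, 2 with the marker balance as a covariate (C5ar2 and Itgb2) and 1 in the 5 libraries of high balance (Cfi, log2 fold change -1.08, adjusted p = 0.0910, edgeR). Among all tested genes, 180 were called with edgeR, 791 with DESeq2, 384 with the covariate, 119 with limma on log2 TPM without a filter, and 81 to 167 with 1 library left out (116 without Thra1PV/+ replicate 2, 81 without Thra1PV/+ replicate 3, 114 without WT replicate 4).

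With the replicate number as a block, the log2 fold change of C3 was -0.53 (adjusted p = 0.947, edgeR), 82 genes were called, and no complement gene was. No source used here says that the numbers pair the samples. Deviations of same-numbered libraries from their group means correlated at 0.269, -0.436, 0.34 and -0.159 over genes. Thra1PV/+ replicate 1 correlated at 0.269 and 0.561 with WT replicates 1 and 2, the other libraries of low marker balance. These values therefore cannot decide whether the numbers pair the samples.

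Depth did not limit C3 or Cfb, at 6888 counts or more in every library. Cfd, at 0 in 5 libraries, was below what this depth can compare.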
